A study of Homo sapiens with 6 samples.

Results

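Rab proteins are small GTPases that mark the membranes of a cell. The Rab genes described here were chosen by symbol, as every row of the count tables whose name begins with RAB and a digit, in HT-1080 cells after 4 h with an IRAK4 inhibitor or with its solvent. The rule took 75 of the 20683 symbols. Of these, 61 are Rab GTPase genes, 10 encode proteins that bind or regulate Rabs or share the name, such as RAB3GAP1 and RAB11FIP3, and 4 are antisense RNAs or pseudogenes, so the family name covers most but not all of them. RAB39B was set apart from the others because it had been selected on its measured change in this comparison, so its values are given as a description, with no test. HT-1080 is a human fibrosarcoma line. IRAK4 is a kinase of Toll-like and interleukin-1 receptor signalling. The compound carries only a code name, SLV-8472-01, and is labelled 5 mM, where it is not said whether that is a stock. The controls received DMSO (0.1%). There were 3 biological replicates of either treatment, per the series, all of 1 cell line.

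A Rab protein switches between a GTP-bound form, which recruits effectors such as motors and tethers to a membrane, and a GDP-bound form. Exchange factors (GEFs) load GTP, GTPase-activating proteins (GAPs) promote its hydrolysis, and a lipid added by geranylgeranyl transferase anchors the protein, while GDI carries the GDP form through the cytosol. Different Rabs serve different routes. RAB1 and RAB6 act between endoplasmic reticulum (ER) and Golgi, RAB8 and RAB27 in exocytosis, RAB5 and RAB7 along the endosomal route to lysosomes, and RAB4, RAB11 and RAB35 in the return of receptors to the cell surface.

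The libraries held 7644478 to 15336351 counts, with inhibitor libraries averaging 0.677 times the depth of DMSO libraries. A count here is a read of 1 amplified part of a transcript, so levels are compared between groups and not between genes. Normalised counts (CPM) are counts scaled to library size with edgeR's TMM factors, and rose or fell means an adjusted p under 0.05 in edgeR's quasi-likelihood test over all 11391 tested genes. All 8 mesenchymal markers checked, such as VIM and FN1, were detected, summing to 7520 to 8441 CPM with DMSO and 7753 to 10001 with the inhibitor. Epithelial markers summed to 1.07 to 2.10 CPM over all libraries, with CDH1 and GRHL2 at 0.

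RAB39B encodes a GTPase best known from neurons, where it acts in vesicle traffic and autophagy, and is mutated in an X-linked disorder with intellectual disability and parkinsonism. Its raw counts were 184, 142 and 141 in the inhibitor libraries and 56, 37 and 19 in the DMSO libraries. As normalised counts these were 16.5, 15.4 and 18.9 CPM with the inhibitor and 3.56, 2.39 and 1.58 CPM with DMSO. The lowest inhibitor library stood 4.33 times above the highest DMSO library, both in CPM. The group means were 16.9 ± 1.77 and 2.51 ± 1.00 CPM (SD, n = 3), and the log2 fold change was 2.71 ± 0.21 (SE), a 6.56-fold difference. This SE takes no account of the selection of RAB39B on its change in these libraries. By log2 fold change it stood 7th of 11391 tested genes. For RAB39A, its closest relative, there were 1, 0 and 0 counts under inhibitor against 2, 3 and 0 in controls, and no fold is given. The proteins C9orf72, SMCR8 and WDR41 form a complex reported to act as an exchange factor for RAB39B. C9orf72 mRNA averaged 8.93 ± 0.53 CPM under inhibitor against 7.84 ± 0.25 in controls (SD, n = 3, edgeR adjusted p = 0.451), SMCR8 at 67.2 ± 6.34 and 70.8 ± 4.98 (0.664) and WDR41 at 11.9 ± 1.59 and 10.5 ± 1.11 (0.472). None of these 3 was called. Of 5 neuronal markers 1 exceeded a mean of 1 CPM and STMN2 was at 0, and their sum ran from 3.08 to 3.48 CPM with the inhibitor and from 3.18 to 4.20 with DMSO, 2 ranges that overlap.

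**Figure D1:**
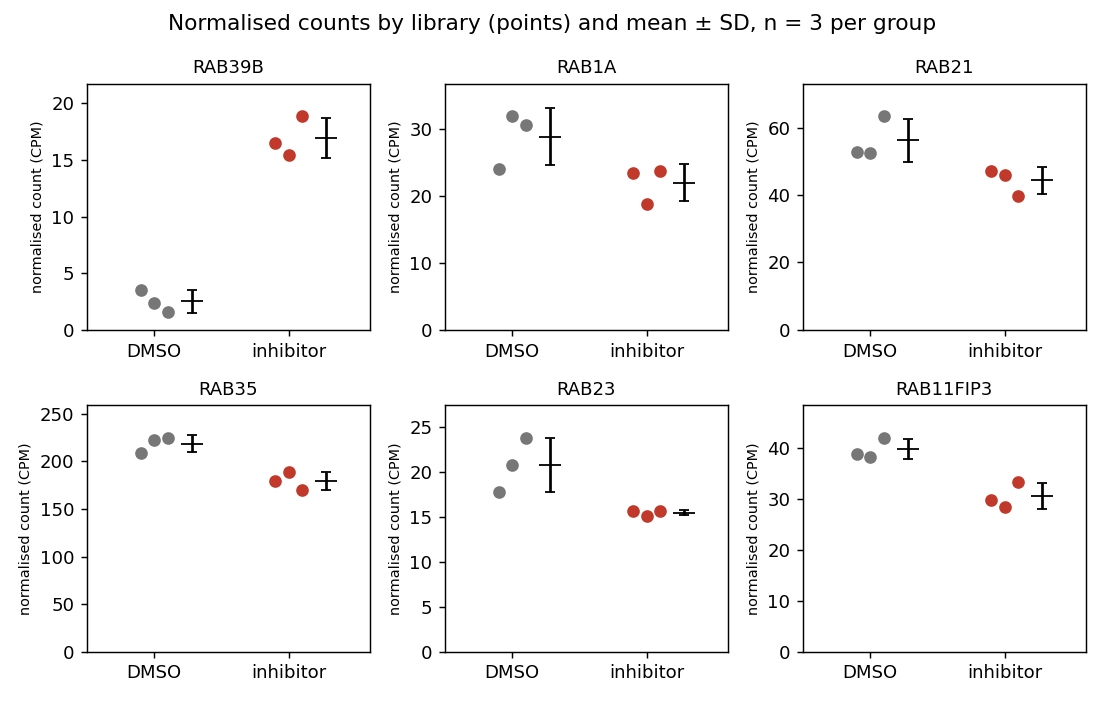
Normalised counts (CPM, vertical axes from 0) of RAB39B and the 5 members that fell, by group. Points are libraries in the order of replicates 1 to 3 and the bar is the mean ± SD. RAB39B lies at 15.4 to 18.9 CPM with the inhibitor against 1.58 to 3.56 with DMSO, while the others differ by 1.22 to 1.34 times.

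Of the 51 besides RAB39B that passed the low-count filter, 0 rose and 5 fell (9.80% changed), where 20.2% of all tested genes changed, 9.92% upward and 10.3% downward. The members that fell were RAB1A, RAB21, RAB35, RAB23 and RAB11FIP3. The share of members that fell was thus close to that of all genes. At an unadjusted p under 0.05, 2 members were higher (3.92%, 16.3% of all tested genes) and 13 lower (25.5%, 17.0%). DESeq2 and limma voom called 0 members upward, beside 1009 and 1123 of all 11391 tested genes. With library totals alone as the scaling, which shifted the median of all genes from 0.0034 to -0.068, 11 fell (21.6%) and 0 rose, beside 15.0% and 7.30% of all tested genes. The median log2 fold change of the 51 was -0.12, beside 0.0034 over all genes tested, with 34 members lower and 17 higher. Of all tested genes 5652 were lower and 5739 higher. Their log2 fold changes ran from -0.53 to 0.28, and 0 of the 51 reached a 2-fold difference, as 2.59% of all tested genes did. The next highest member after RAB39B was the endosomal RAB31 at 0.28, which left a gap of 2.44 on the log2 scale. For 50 of the 51, an interval of 2 standard errors around the estimate excluded a 2-fold difference in either direction. The exception was RAB40B, with 97 counts over the 6 libraries. The groups did not overlap for 16 members (31.4%), 4 higher and 12 lower, beside 36.3% of all tested genes.

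Counts of all 75 genes together took 0.408%, 0.407% and 0.411% of the library in the inhibitor group and 0.434%, 0.445% and 0.435% in the DMSO group. Each inhibitor library had a smaller share than each DMSO library, and the ratio of the group means was 0.933. With TMM scaling the summed level was 4177, 4189 and 4205 CPM with the inhibitor and 4234, 4254 and 4340 CPM with DMSO, a ratio of 0.980, again without overlap. Among single tested genes, the groups did not overlap for 36.3%. Both sums include RAB39B and weigh each gene by its reads, so the genes with most reads count most. The remaining 23 members were not tested. Of these 10 had no count in any library. A count of 0 leaves room for 3 counts, or 0.191 to 0.402 CPM across libraries (counting error only, in PCR reads without molecular identifiers). Whether transcripts of these 10 could be amplified and counted at all was not tested, so a 0 need not mean a low level. The other 13 had at most 51 counts in all 6 libraries together.

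**Figure D2:**
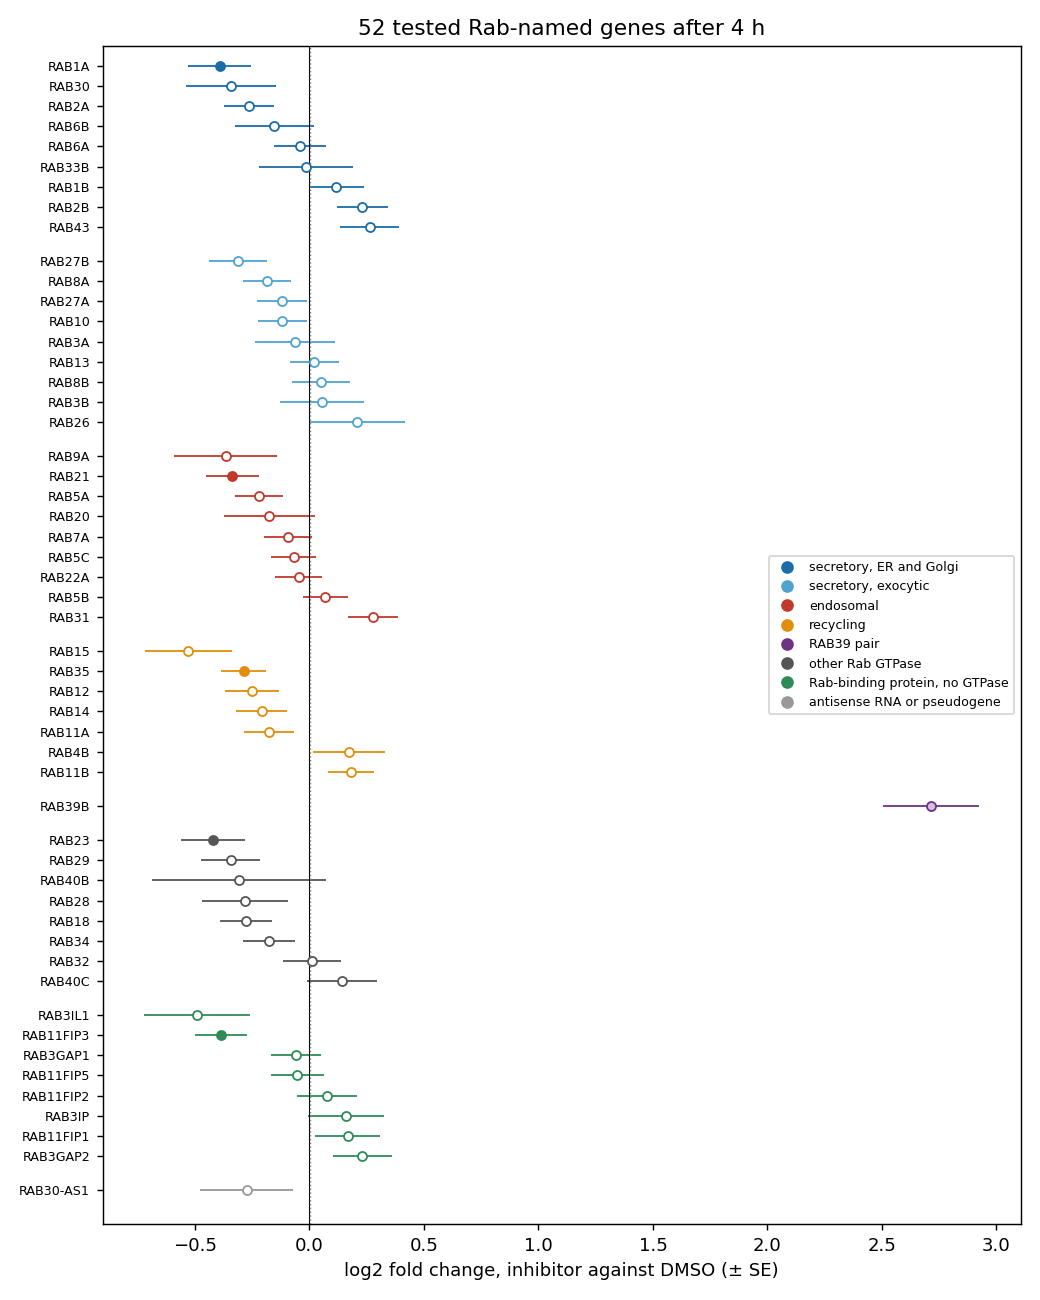
log2 fold change (inhibitor against DMSO, horizontal axis) of the 52 tested members, by class, with bars of ± 1 SE. Filled points were called, open points were not, and the pale RAB39B point was not tested. RAB39B stands at 2.71, and all other members lie between -0.53 and 0.28, with 34 of the 51 below 0. The dotted line is the median of all genes.

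Secretory Rabs, which act between ER and Golgi or at exocytosis, had 18 tested genes of 25, of which 0 rose and 1 fell, with a median log2 fold change of -0.052. The gene that fell was RAB1A, which directs vesicles from the ER to the Golgi. It was at 23.5, 18.8 and 23.7 CPM with the inhibitor and 24.1, 32.0 and 30.6 with DMSO, and the groups did not overlap, although DMSO replicate 1 lay close to the inhibitor libraries. The log2 fold change was -0.39 ± 0.14 (SE, edgeR adjusted p = 0.0454). Its relative RAB1B, with the same role, averaged 373 ± 69.4 CPM with the inhibitor against 344 ± 33.3 (SD, n = 3, edgeR adjusted p = 0.529). Among the 9 tested ER and Golgi Rabs the log2 fold changes ran from -0.39 to 0.26, and RAB33B, a Golgi Rab also linked to autophagy, was nearest to 0 at -0.017 ± 0.21 (SE). None of the 9 tested exocytic Rabs was called (-0.31 to 0.21), and for each of them the groups overlapped. Over all tested genes 20.2% were called, and the groups did not overlap for 36.3%. RAB13, which acts at cell junctions and in surface delivery, changed least at 0.022 ± 0.11 (SE).

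Endosomal Rabs were all tested, and of the 9 genes 0 rose and 1 fell, with a median of -0.093. RAB21, which acts on early endosomes and in integrin traffic, was at 47.3, 46.0 and 39.8 CPM with the inhibitor and 52.7, 52.4 and 63.5 with DMSO. The groups did not overlap, and the log2 fold change was -0.34 ± 0.12 (SE, edgeR adjusted p = 0.0442). RAB22A, an early endosomal Rab, was nearest to 0 at -0.047 ± 0.10 (SE). Its relative RAB31 was at 446, 510 and 534 CPM with the inhibitor and 388, 468 and 372 with DMSO, with overlapping groups, and was not called (edgeR adjusted p = 0.0758). Without inhibitor replicate 1 or without DMSO replicate 2 RAB31 was called upward (edgeR adjusted p = 0.0432 and 0.0434), so the count of members that rose was then 1. RAB7A, the late endosomal Rab (named after its value was seen), was at 417 ± 34.3 and 445 ± 38.6 CPM (SD, n = 3, edgeR adjusted p = 0.567).

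Recycling Rabs had 7 tested genes of 10, of which 0 rose and 1 fell, with a median of -0.21. RAB35, which drives rapid return of cargo from endosomes to the plasma membrane, was at 179, 189 and 170 CPM with the inhibitor and 209, 223 and 225 with DMSO. The groups did not overlap, and the log2 fold change was -0.29 ± 0.10 (SE, edgeR adjusted p = 0.0431). RAB4B, of the fast recycling route, averaged 16.4 ± 2.99 CPM under inhibitor against 14.4 ± 2.34 with DMSO (log2 fold change 0.17 ± 0.16, SE) and was nearest to 0. The largest difference of the class was in RAB15, named after its value was seen, at -0.53 ± 0.19 (SE, edgeR adjusted p = 0.0525). The share that fell was 5.56% of secretory, 11.1% of endosomal and 14.3% of recycling Rabs, beside 10.3% of all tested genes. The medians of the secretory, endosomal and recycling classes are descriptions, and the difference between classes was not tested. The secretory median lay below the endosomal one without inhibitor replicate 1 (-0.11 against -0.095) and with a minimum mean of 10 CPM (-0.066 against -0.056), so the order of these classes was not fixed. With RAB8A, RAB8B, RAB10, RAB13 and RAB22A, which serve more than 1 route, counted as recycling, the medians were -0.052, -0.13 and -0.15, and each class again had 1 gene that fell.

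Among the 8 tested Rabs of other routes, 0 rose and 1 fell (12.5%, beside 10.3% of all tested genes), with a median log2 fold change of -0.28. The groups did not overlap for 4 of these Rabs, all lower (50%, beside 36.3% of all tested genes in either direction). RAB23, a negative regulator of Hedgehog signalling, was at 15.7, 15.1 and 15.7 CPM with the inhibitor and 17.8, 20.8 and 23.9 with DMSO, with no overlap between groups. The log2 fold change was -0.42 ± 0.14 (SE, edgeR adjusted p = 0.0357). Of the 8 tested Rab-binding proteins, 1 fell (12.5%) and 0 rose. This was RAB11FIP3, an effector that links RAB11 vesicles to the cleavage furrow and to dynein. It was at 29.8, 28.3 and 33.2 CPM with the inhibitor and 38.8, 38.2 and 42.0 with DMSO, and its log2 fold change was -0.38 ± 0.11 (SE, edgeR adjusted p = 0.0203). The antisense RNA of RAB30 was not called. Whether its reads could be told apart from those of RAB30 was not tested. None of the 5 falls passed a test against a fold of 1.2. The calls also changed when a single library was dropped. Dropping inhibitor replicate 1, 2 or 3 gave 0, 1 (RAB29, which was not among the 5) and 5 falls among members. Over all tested genes it gave 824, 846 and 1113 falls, beside 1168 in the main fit. Dropping DMSO replicate 1, 2 or 3 gave 6, 1 (RAB11FIP3) and 0 falls among members, and 978, 721 and 852 over all tested genes. Whether members lost calls to a particular library or to the smaller number of libraries was not tested. RAB35 lost its call without any 1 of the 6 libraries (adjusted p up to 0.123), RAB1A in 9 of 14 alternatives (up to 0.207), RAB21 in 8 (up to 0.201), RAB23 in 7 (up to 0.160) and RAB11FIP3 in 4 (up to 0.0940).

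The stretches of 250 bases before the start of 4 of the members that fell are shown because these genes were called lower. They are the first start that RefSeq lists (GRCh38.p14), at chr12:71754613-71754862 (plus strand) for RAB21, chr12:120116754-120117003 (minus) for RAB35, chr6:57222308-57222557 (minus) for RAB23 and chr16:425399-425648 (plus) for RAB11FIP3. Each is written 5′ to 3′ on the strand of its gene, and capitals mark matches to any of 5 motifs.
RAB21: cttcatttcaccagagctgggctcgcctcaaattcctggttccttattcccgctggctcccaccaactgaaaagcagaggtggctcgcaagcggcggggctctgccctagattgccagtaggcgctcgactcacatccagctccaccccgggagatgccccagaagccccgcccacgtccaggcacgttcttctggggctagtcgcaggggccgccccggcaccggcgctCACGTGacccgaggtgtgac
RAB35: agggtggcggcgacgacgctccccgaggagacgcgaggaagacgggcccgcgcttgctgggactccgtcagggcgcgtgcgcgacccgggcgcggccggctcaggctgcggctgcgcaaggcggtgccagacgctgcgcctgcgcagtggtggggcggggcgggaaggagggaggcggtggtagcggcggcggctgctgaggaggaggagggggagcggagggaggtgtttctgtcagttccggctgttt
RAB23: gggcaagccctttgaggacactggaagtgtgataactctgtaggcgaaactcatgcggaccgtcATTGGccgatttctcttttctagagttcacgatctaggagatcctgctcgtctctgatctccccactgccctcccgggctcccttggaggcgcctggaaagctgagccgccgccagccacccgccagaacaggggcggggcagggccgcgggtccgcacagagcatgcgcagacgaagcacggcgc
RAB11FIP3: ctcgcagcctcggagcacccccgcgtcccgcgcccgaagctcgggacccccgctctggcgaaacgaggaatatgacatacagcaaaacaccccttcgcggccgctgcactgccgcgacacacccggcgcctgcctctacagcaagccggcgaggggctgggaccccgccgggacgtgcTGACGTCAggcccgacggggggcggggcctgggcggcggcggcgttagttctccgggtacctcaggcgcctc
The motifs searched on both strands were the C/EBP-ATF element TGATGNAAN, the cyclic AMP element TGACGTCA, the AP-1 site TGANTCA, the E-box CACGTG and the CCAAT box. RAB11FIP3 held the cyclic AMP element, found in 1.77% of all 27305 promoters of this length, RAB21 an E-box (6.49%), RAB23 a CCAAT box on the other strand (33.0%) and RAB35 none of the 5. No motif was matched in more than 1 of the 4. Of the 42 tested members with a sequence, 4 had the E-box (9.52%, 6.49% of all promoters) and 1 had the cyclic AMP element (2.38%, 1.77%), while 1 had TGATGNAAN (2.38%, 3.18%), 2 had TGANTCA (4.76%, 6.60%) and 12 had the CCAAT box (28.6%, 33.0%).

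Paralogs with like roles were set against each other. The ratio of a pair's counts within a library does not depend on how libraries are scaled, and it was compared for 14 pairs with both members tested. The pairs given with values here were chosen after their ratios were seen. The groups did not overlap for 4 pairs (28.6%, beside 36.3% of single tested genes by CPM; 2-sided exact permutation p = 0.1 each, the smallest that 3 against 3 allows, and 0.311 when adjusted by Benjamini-Hochberg over the 14), so no pair could pass the threshold. The pairs are not independent, since RAB5A/RAB5B and RAB5A/RAB5C, both without overlap, share RAB5A. RAB8A also entered several of the 14 pairs. RAB2A and RAB2B both act between ER and Golgi. RAB2A was at 76.4, 73.4 and 80.3 CPM with the inhibitor and 95.7, 81.0 and 99.3 with DMSO, whereas RAB2B was at 41.0, 37.6 and 42.5 with the inhibitor and 35.9, 32.9 and 34.3 with DMSO. RAB2A was thus lower and RAB2B higher in each inhibitor library than in any DMSO library, and neither was called by itself (edgeR adjusted p = 0.0912 and 0.149). The log2 ratio of RAB2A to RAB2B was 0.90, 0.96 and 0.92 with the inhibitor and 1.41, 1.30 and 1.53 with DMSO, a difference of -0.49 (-0.55 to -0.43 when any 1 library was left out). RAB5A, one of 3 early endosomal RAB5 genes, was at 75.6, 69.8 and 64.6 CPM with the inhibitor and 78.5, 80.3 and 86.3 with DMSO. Its log2 ratio to RAB5B differed by -0.29 and that to RAB5C by -0.16. RAB8A differed from RAB13 by -0.21. RAB40B differed from RAB40C by -0.51, with an SD of 0.83 in the inhibitor group and overlapping groups, and by -0.12 to -0.95 when any 1 library was left out. The ratio of RAB1A to RAB1B differed by -0.49, also with overlapping groups. Reads of close paralogs could have been split or lost in the authors' counting, which was not tested.

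**Figure D3:**
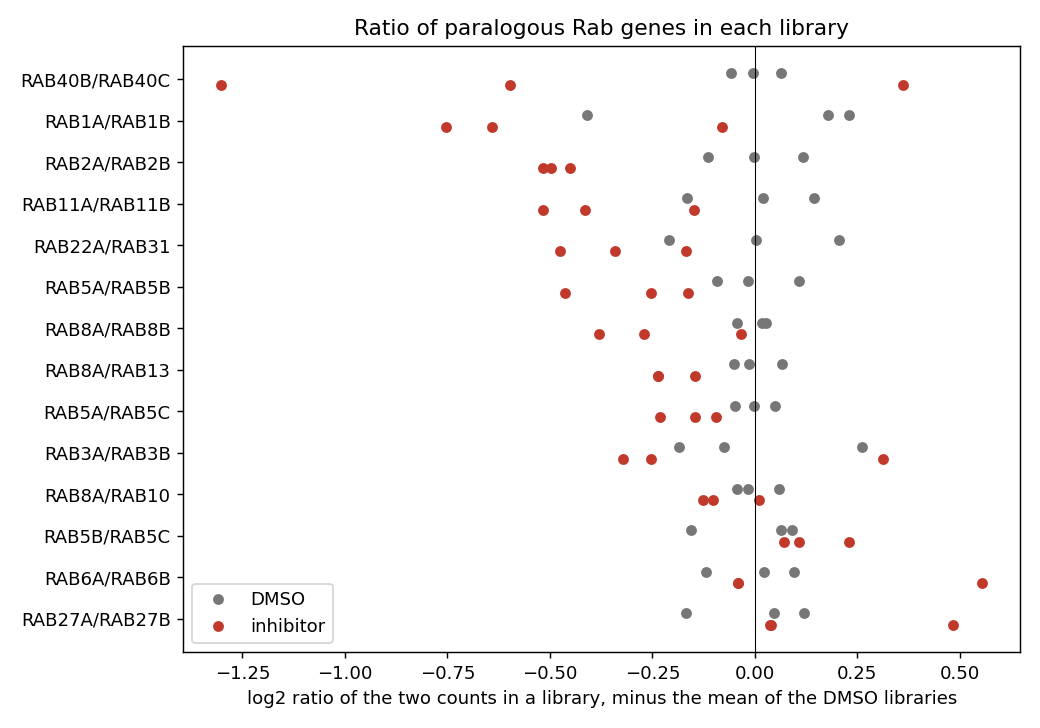
log2 ratio of the counts of 2 paralogs in each library, minus the mean of that ratio in the DMSO libraries, for 14 pairs. Grey points are DMSO libraries and red points inhibitor libraries, 3 each. The RAB2A/RAB2B points are the most clearly apart of the 4 pairs without overlap, with a difference of -0.49.

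Regulators and effectors of Rabs came from a list of 144 genes. Of the 142 in the tables, 121 were tested, of which 8 rose (6.61%) and 6 fell (4.96%), beside 9.92% and 10.3% of all tested genes, with a median log2 fold change of 0.028. Of the 7 genes of prenylation and GDI, 1 rose (14.3%). It was RABGGTB, the catalytic subunit of the transferase that adds the lipid to Rabs, at 269, 299 and 307 CPM with the inhibitor and 191, 197 and 191 with DMSO. The log2 fold change was 0.59 ± 0.10 (SE, edgeR adjusted p = 1.87e-04).

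Of 41 tested exchange factor genes, 2 rose (4.88%) and 1 fell (2.44%), beside 9.92% and 10.3% of all tested genes. TRAPPC12, a subunit of a TRAPP complex that acts on RAB1, was at 38.4, 36.0 and 33.9 CPM with the inhibitor and 83.2, 86.4 and 90.7 with DMSO. Its log2 fold change of -1.26 ± 0.11 (SE, edgeR adjusted p = 2.21e-08) was the largest of any tested regulator. RIN2, an exchange factor for RAB5, was at 30.0, 25.3 and 26.0 CPM with the inhibitor and 13.9, 17.6 and 15.8 with DMSO, a rise of 0.79 ± 0.13 (SE, edgeR adjusted p = 2.15e-04). SBF2, a myotubularin-related protein with a DENN domain, rose by 0.33 ± 0.10 (SE), but not with library totals as the scaling (adjusted p = 0.0812) or without inhibitor replicate 3, DMSO replicate 1 or DMSO replicate 2 (0.0818, 0.0983 and 0.09997). RABGGTB, TRAPPC12 and RIN2 kept their calls in all 14 alternatives and passed the test against a fold of 1.2.

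Of 33 tested GAP genes, 2 rose (6.06%) and 3 fell (9.09%), beside 9.92% and 10.3% of all tested genes. TBC1D30 (-0.74 ± 0.19, SE) and TBC1D4 (-0.71 ± 0.17), a GAP for RAB10 in insulin-stimulated glucose transporter traffic, fell, as did USP6NL (-0.41 ± 0.14), a GAP for RAB5. TBC1D10A, a GAP for RAB35 and RAB27A, rose by 0.46 ± 0.13. Of 40 tested effector genes, 3 rose (7.5%) and 2 fell (5%), beside 9.92% and 10.3% of all tested genes. RABEP1, the RAB5 effector rabaptin-5, fell by 0.56 on the log2 scale, and BICD2, a dynein adaptor recruited by RAB6, by 0.40. INPP5B, a phosphatase that binds RAB5, rose by 0.41 ± 0.11 (SE), and EXPH5, a RAB27 effector, rose from 0.94 ± 0.20 to 1.87 ± 0.27 CPM. TBC1D4 and BICD2 kept their calls in all 14 alternatives, which leave out the test against a fold of 1.2. TBC1D30 and TBC1D4 passed that test too, and SBF2, TBC1D10A, USP6NL, RABEP1, INPP5B, BICD2 and EXPH5 did not (edgeR adjusted p = 0.0987 to 0.421). USP6NL lost its call in 7 and EXPH5 in 9 of 13, and RABEP1, INPP5B and TBC1D10A in 2 each, while TBC1D30 lost it without inhibitor replicate 2 (adjusted p = 0.0524).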

How the data were processed

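Per the labels' protocols, RNA of HT-1080 cells was amplified with the Ion AmpliSeq Transcriptome panel and read on an Ion Proton (6 libraries). The deposited values are raw counts per gene symbol, 1 table per library, which the authors did not normalize, as the whole numbers and unequal totals show. The submitters' processing notes list HTSeq, DESeq2 1.20.0 and hg19, without their roles. Aligner, annotation and strand setting: not given in the sources used here.

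Groups and replicate numbers came from the titles. Replicates of a group were not copies of each other (chi-square over degrees of freedom 9.32 to 14.7), and each counted as 1. P-values set the difference between groups against the spread between these libraries, all of 1 cell line. The test used edgeR 4.0.16 in R 4.3.3 (filterByExpr, TMM, glmQLFit and glmQLFTest, inhibitor minus DMSO, no covariates), with Benjamini-Hochberg adjustment over 11391 genes and a threshold of 0.05. SE was taken as |log2 fold change| over the root of F. The procedure was tested on simulated data. Paralog ratios used 0.5 added counts. Alternatives included DESeq2 1.42.0, limma voom 3.58.1, other scalings and filters, a replicate block, thinning to the smallest library and each library left out.

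The members and lists were chosen with earlier results of these data known. Named with values were RAB39B, RAB39A, every called member, the least changed tested member of each of 4 trafficking classes, paralogs of named members, up to 4 called regulators of each class with the largest change, and C9orf72, SMCR8 and WDR41. Other names, among them the paralog pairs given with values, are marked as chosen after their values were seen. RefSeq promoters matched 59 of the 75 members. Those of RAB39B and RAB1A were not among them.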

Additional observations from a re-analysis of the deposited data

How the results depend on the processing

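The RAB39B log2 fold change ran from 2.50 (without DMSO replicate 3) to 3.05 (without DMSO replicate 1), and with a minimum mean of 10 CPM it had no value, since the gene was filtered out. Counts of falls among the other members moved more. With library totals as the scaling 11 members fell (3 secretory, 3 recycling), the members' median log2 fold change was -0.19, the secretory median -0.12 and the endosomal median -0.17. Without a count filter 2 recycling Rabs fell. With a minimum mean of 10 CPM 3 members fell, 0 of them secretory and 0 endosomal, and the median was -0.051. DESeq2 called 2 members (0 secretory, 0 endosomal), limma voom 4 (0 secretory), thinned libraries 2 (0 secretory), and the test against a fold of 1.2 called 0 members (0 secretory, 0 endosomal, 0 recycling). Over all genes 1168 of 11391 fell in the main fit, 1359 of 16078 without a count filter and 912 of 7952 with the 10 CPM minimum. DESeq2 called 1043 of 11391 downward, limma voom 1144, thinned libraries 1030 of 10951 and the test against a fold of 1.2 380 of 11391. With 1 library left out, 0 to 6 members fell and 0 to 1 rose, while over all genes 721 to 1113 fell and 684 to 1133 rose. By class, 0 to 2 secretory, 0 to 1 endosomal and 0 to 1 recycling Rabs fell, and 0 to 1 endosomal Rabs rose. The secretory median then ran from -0.11 (without inhibitor replicate 1) to -0.041, the endosomal median from -0.15 to -0.095 and the recycling median from -0.25 to -0.13. The cause was not tested. No called direction reversed in any alternative run.

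With the replicate block 4 members fell, 3 of them among the main 5, with 0 secretory and 0 endosomal. Over all genes 1137 of 11391 fell with this block. Same-numbered libraries did not deviate together (correlations 0.032, -0.016 and 0.0070), and differently numbered ones ran from -0.079 to 0.076. The titles do not say whether equal numbers share a culture or day, and these correlations cannot decide it.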
